A study of Rattus norvegicus with 12 samples.

Results

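The genes of the AP-1 transcription factor, 4 of the Fos family (Fos, Fosb, Fosl1 and Fosl2) and 3 of the Jun family (Jun, Junb and Jund), were followed in rat hippocampal cultures. They were chosen by symbol and make up 7 of the 26404 genes in the deposited polyA tables. All 7 reached an FPKM (fragments per unit of gene length and of depth) of 1 in at least 1 arm and were among the 12046 genes tested. The cultures were neuron-enriched primary hippocampal cells of Sprague-Dawley embryos (embryonic day 18), kept as bulk cultures with no genetic change named in the labels. At 18 days in vitro (DIV) they received either vehicle, the control arm, or picrotoxin, a blocker of the chloride channel of GABA-A receptors that raises network activity. RNA was taken 48 h later, at 20 DIV, and each arm has 3 polyA libraries. The labels number them 3, 10 and 20 in both arms, and these numbers are called cultures here. The sources used here do not give the dose of picrotoxin or name the vehicle.

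Fos and Jun proteins carry a basic region that contacts DNA and a leucine zipper through which they dimerise. Jun proteins pair with each other or with a Fos protein, whereas Fos proteins need a Jun partner, and the dimer binds the AP-1 site. In neurons, calcium entry and kinase signalling to SRF and CREB switch on Fos, Fosb and Junb within minutes as immediate early genes, and their mRNAs are short-lived. Jund is known to be present at rest. The libraries show the state after a long period of raised activity, not the first burst.

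The CRE, to which CREB and related factors bind, was searched as TGACGTCA and as the half-sites TGACG and CGTCA, which also lie inside the full CRE. The AP-1 site was searched as TGACTCA or TGAGTCA, and the serum response element by its core, the CArG box, all on both strands. RefSeq promoters of build GRCr8, from 250 bases before to 50 after a transcript start, were matched by symbol for 5 of the 7 members: Fosb, Fosl1, Fosl2, Junb and Jund. Of these, 1 held a full CRE and 3 a half-site, and 0 held an AP-1 site or a CArG box. Among all 33469 promoters of this length, 1.83% held a CRE, 21.2% a half-site, 4.63% an AP-1 site and 1.64% a CArG box. The promoters of Junb and Jund are shown because these genes had the smallest p-values of the family and opposite signs. Each is the run of 250 bases before the start, on the gene's strand, with CRE and half-site letters in capitals. The Junb run is chr19:40080876-40081125 (plus strand) and the Jund run chr16:18769772-18770021 (minus strand).
Junb: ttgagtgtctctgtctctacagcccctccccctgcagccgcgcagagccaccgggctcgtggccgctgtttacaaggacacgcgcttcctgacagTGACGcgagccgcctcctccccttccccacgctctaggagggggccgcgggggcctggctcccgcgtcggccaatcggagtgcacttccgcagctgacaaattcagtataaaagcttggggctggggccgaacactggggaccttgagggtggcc
Jund: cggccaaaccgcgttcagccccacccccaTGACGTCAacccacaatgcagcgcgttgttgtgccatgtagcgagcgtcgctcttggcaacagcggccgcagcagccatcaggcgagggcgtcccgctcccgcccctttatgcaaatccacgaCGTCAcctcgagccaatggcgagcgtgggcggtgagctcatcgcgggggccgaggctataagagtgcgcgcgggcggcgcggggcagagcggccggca

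The Jund run holds the full CRE, which begins 221 bases before the start, and a further half-site at 98 bases. The Junb run holds a single half-site at 155 bases. In Fosl1 half-sites begin 148 and 84 bases before the start, and in the Fosb and Fosl2 windows none of these motifs was found. A match is a description of the letters and not evidence of binding.

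**Figure D1:**
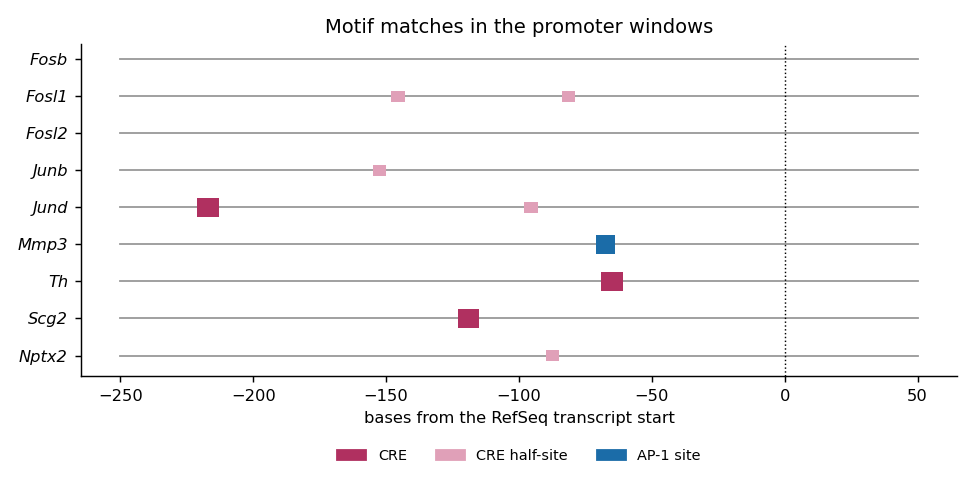
Matches of the CRE, its half-site and the AP-1 site in RefSeq promoter windows, with distance in bases from the transcript start on the horizontal axis. The upper 5 rows are members and the lower 4 are AP-1 target genes that rose with picrotoxin; Jund carries a full CRE at 221 bases before the start, and Mmp3 an AP-1 site at 71.

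After 48 h of picrotoxin Junb stood at 0.67 of its control level on the log2(value + 1) scale, while Jund was 1.23 times and Fos 1.13 times its control level. The scarce Fosl1 was at 1.52 times its control level, with a wide interval. Without regard to culture, 0 of the 7 members passed the limma test and 0 passed in voom. Junb and Jund, 2 in all, had an unadjusted limma p under 0.05, as 2123 of the 12046 tested genes did. The share of all tested genes that passed was 3.29%, with 1.67% higher and 1.62% lower. With culture as a block, Fos and Jund rose and Junb fell, against 9.65% of all tested genes that rose and 10.4% that fell in that fit. Levels below are scaled counts, that is numbers of fragments per gene divided by the authors' size factor of the library, without scaling for gene length. The libraries hold between 11895727 and 13944778 fragments each, and mean and SD are over 3 libraries per arm. In bulk RNA, fewer cells of a type and less RNA per cell cannot be told apart.

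**Figure D2:**
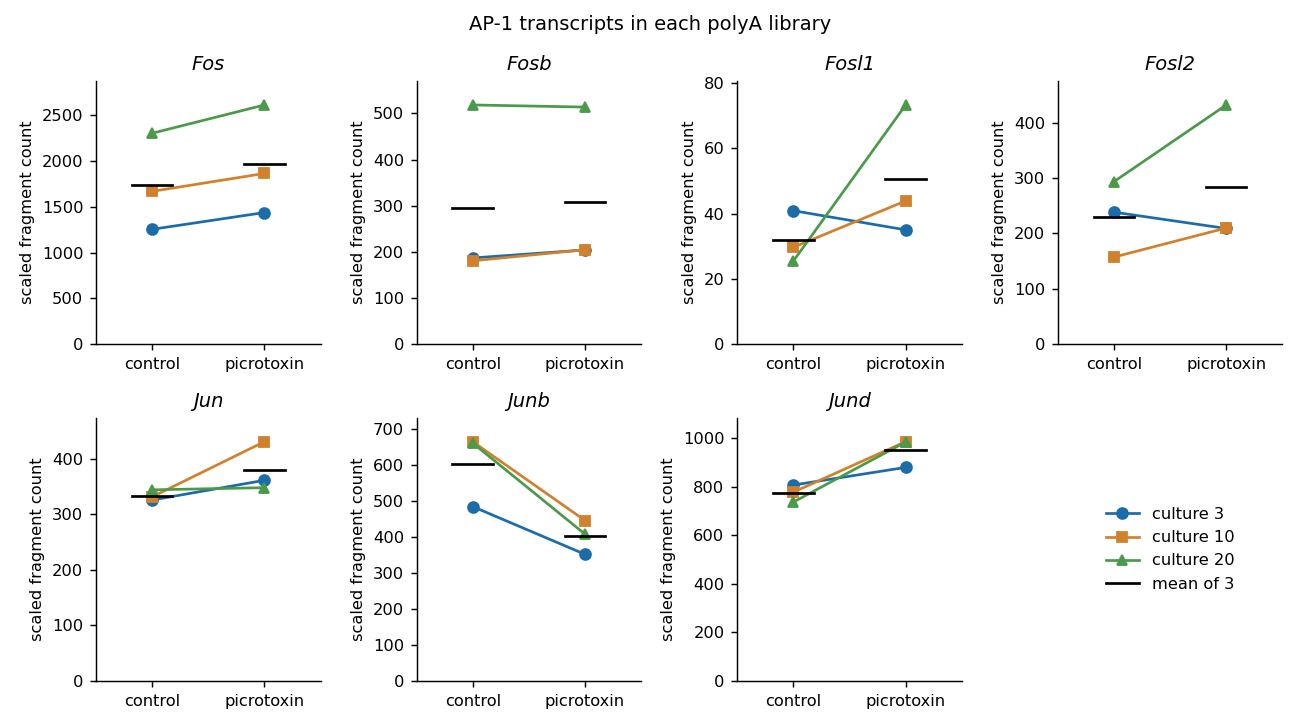
Scaled fragment count of each AP-1 gene (vertical axis, from 0) in the 3 control and 3 picrotoxin libraries, with lines joining libraries of the same culture and black bars for arm means. Junb lines all slope down, Jund lines all slope up, and the lines of Fos all slope up while culture 20 stays highest in both arms.

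Junb encodes a Jun protein that pairs with Fos proteins and activates many promoters more weakly than Jun. Control cultures 3, 10 and 20 held 485, 665 and 661 scaled counts, and the picrotoxin cultures 352, 446 and 408. All 3 picrotoxin values lay below all 3 control values, as they did for 11.8% of tested genes. The means were 604 ± 103 and 402 ± 47.3 (SD, n = 3), and the picrotoxin level was 0.726, 0.670 and 0.617 of control in cultures 3, 10 and 20. The log2 fold change of -0.58 (SE 0.15, 95% interval -0.90 to -0.25) missed the threshold in limma, with an adjusted p of 0.0648. With culture as a block Junb fell, with an interval of -0.75 to -0.41 and a limma adjusted p of 4.9e-05. It fell in all 12 blocked fits, those with 1 culture left out included. In the authors' deposited table Junb was the 1 member marked as changed, 1.51-fold lower (q = 0.00155), against 3.67% of their tested genes marked lower.

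Jund encodes the Jun protein of resting cells. Its control cultures held 808, 778 and 738 scaled counts and its picrotoxin cultures 881, 987 and 985, so the arms did not overlap. Picrotoxin values lay above all control values in 11.6% of tested genes. The means were 775 ± 35.3 and 951 ± 60.8 (SD, n = 3), with ratios of 1.09, 1.27 and 1.34 in cultures 3, 10 and 20. The log2 fold change of 0.29 (SE 0.09) had a limma adjusted p of 0.122. With culture as a block Jund rose (adjusted p = 0.00771 in limma), a call that was lost without culture 10 (adjusted p = 0.0595).

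Jun, the founding member and the target of the JNK kinases, was the steadiest gene of the family among controls. Control cultures held 326, 332 and 344 scaled counts and picrotoxin cultures 362, 431 and 348. The lowest picrotoxin value, in culture 20, lay just above the highest control value, and the largest difference was in culture 10. The log2 fold change of 0.18 (SE 0.11, 95% interval -0.07 to 0.44) did not pass, with an adjusted p of 0.479 in limma and 0.181 with the block. With the block it passed only when culture 20 was left out (adjusted p = 0.0443 in limma).

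Fos, the immediate early gene widely used to mark active neurons, had the highest count of the family. Control values were 1255, 1670.0 and 2305 scaled counts in cultures 3, 10 and 20, and picrotoxin values 1439, 1866 and 2614. The arms overlapped, since culture 20 was high and culture 3 low in each. Within a culture the picrotoxin value was higher by 14.6%, 11.7% and 13.4%. In limma without a block the log2 fold change of 0.18 had an SE of 0.24 and an adjusted p of 0.778. With the block Fos rose, with the same log2 fold change, a 95% interval of 0.05 to 0.31 and a limma adjusted p of 0.0476. This call lies at the threshold: the adjusted p was 0.252, 0.121 and 0.0775 when culture 3, 10 or 20 was left out, and 0.0561 with no filter on FPKM.

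**Figure D3:**
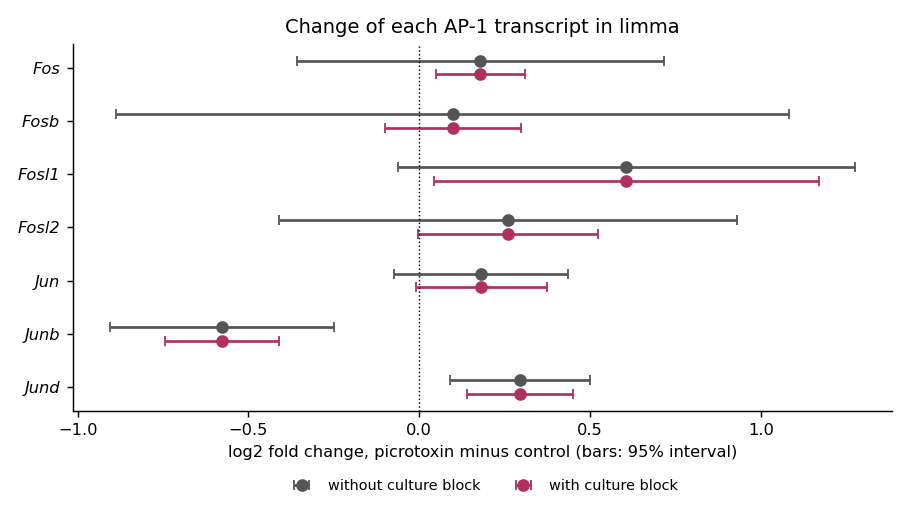
Log2 fold change of each member (picrotoxin minus control, on the log2(value + 1) scale) with its 95% interval in limma, without and with culture as a block. With the block the intervals of Fos, Fosl1, Junb and Jund leave 0, and after adjustment over all genes Fos, Junb and Jund pass.

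Fosb encodes a Fos protein whose truncated splice form is known to build up in neurons under lasting stimulation. Gene counts do not separate the forms. Control cultures held 187, 181 and 518 scaled counts and picrotoxin cultures 204, 205 and 514. Culture 20 stood far above the others in both arms, and the treatment moved the value by 9.25%, 13.3% and -0.883% in cultures 3, 10 and 20. The log2 fold change was 0.10 (adjusted p = 0.940 in limma, and 0.521 with the block). The blocked 95% interval ran from -0.10 to 0.30.

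Fosl2 encodes Fra-2, a Fos protein without a strong activation domain. Control cultures held 238, 157 and 294 scaled counts and picrotoxin cultures 209, 209.9 and 432. The level was 0.877 of control in culture 3 but 1.33 and 1.47 times control in cultures 10 and 20. Its log2 fold change was 0.26 (SE 0.30), which did not pass in limma (adjusted p = 0.736, and 0.162 with the block). When culture 3 was left out of the blocked fit, Fosl2 passed (log2 fold change 0.48, adjusted p = 0.0279 in limma).

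Fosl1 encodes Fra-1, itself a known target of AP-1, and was the scarcest member. Control cultures held 40.9, 29.7 and 25.4 scaled counts and picrotoxin cultures 34.99, 43.9 and 73.2, which correspond to 24 to 70 fragments. The value of picrotoxin culture 20 stood above the rest, at 2.88 times its control, while culture 3 was at 0.856. The log2 fold change of 0.61 (SE 0.30) did not pass in limma (adjusted p = 0.339, and 0.125 with the block), and it was 0.17 without culture 20. With the block and culture 3 left out it was 1.02 and passed (adjusted p = 0.0369 in limma). In the authors' tables the printed interval of Fosl1 (chromosome 1, 227749933 to 227768383) is shared with 2 unnamed genes, 1 of them at an FPKM of 90.9 in control against 1.65 for Fosl1. The sources used here do not say whether counting used strand, so the value of Fosl1 is uncertain.

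Of the 7 members, 3 (Fos, Jun and Jund) were higher with picrotoxin in all 3 cultures, and 25.1% of tested genes were. Junb alone was lower in all 3, as 27% of tested genes were. With 7 genes, these counts are not read as a result about the family. The median log2 fold change was 0.18 over the members and -0.01 over all tested genes.

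The members differed in how much of their variation lay between cultures. Of the sum of squares of log2(value + 1) over the 6 libraries, 99.1% lay between cultures for Fosb, 94.0% for Fos and 79.2% for Fosl2. It was 26.1% for Junb, 22.3% for Jun, 5.23% for Fosl1 and 2.08% for Jund, against a median of 50.8% over tested genes. The treatment took 83.2% for Jund and 71.9% for Junb, where the median was 21.6%. Fosb in culture 20 was 2.82 times the mean of cultures 3 and 10 in the control arm and 2.51 times in the picrotoxin arm. For Fos these ratios were 1.58 and 1.58. Fos and Fosb exceeded 1.5 in both arms, which 1.12% of tested genes did. Fosl2 was at 1.48 and 2.06. The cutoff of 1.5 was not planned. It lies just below the ratios of Fos and just above the control ratio of Fosl2, so the share is a description. Of other tested rapid activity-regulated genes, Nr4a1, Nr4a2, Nr4a3, Atf3, Maff and Homer1 were also highest in culture 20 in both arms. Nr4a2 held 592, 598 and 1117 scaled counts in control cultures 3, 10 and 20 and 585, 541 and 918 with picrotoxin. Egr1, Egr2, Egr3, Egr4, Arc, Dusp6, Gadd45g, Ptgs2 and Klf2 were highest in culture 20 only in control, and Dusp1 only with picrotoxin. Npas4, Btg2, Ier2, Ier3, Ier5 and Cyr61 were highest there in neither arm. The share of all tested genes highest in culture 20 in both arms was not counted, so this is a description of the list.

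Some markers of inhibitory neurons were also highest in culture 20. The summed scaled count of 9 listed markers was 22185 in control culture 20 against 16413 and 15271 in cultures 3 and 10, and 29845 against 18835 and 18685 with picrotoxin. Gad1, Gad2, Slc32a1, Dlx1 and Lhx6, 5 of the 9, were highest in culture 20 in both arms. Sst and Npy were so only with picrotoxin, and Vip and Pvalb in neither. The share of all tested genes highest in culture 20 in both arms was not counted, so the 5 of 9 are a description. Of the 9, 8 were tested, 0 passed without the block (2 at an unadjusted p under 0.05 in limma) and 4 rose with it. Over all tested genes 9.65% rose with the block, and 2123 of 12046 had an unadjusted limma p under 0.05. The part of these markers in the levels of Fos and Fosb was not tested.

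Between genes, levels can be set side by side only per length, and the authors give such values, FPKM, per arm. In the authors' deposited table Fos was highest in control (FPKM 94.5), followed by Jund (69.9), Junb (54.0), Fosl2 (35.8), Jun (30.9), Fosb (7.34) and Fosl1 (1.65). With picrotoxin the order was Fos (107), Jund (85.6), Fosl2 (43.9), Junb (35.8), Jun (35.1), Fosb (7.63) and Fosl1 (2.60). Per-library levels follow by scaling the counts to these FPKM values. In control, Junb at 54.0 ± 9.22 and Jund at 69.9 ± 3.18 (SD, n = 3) did not overlap, and Fos at 94.5 ± 28.7 overlapped with Jund. With picrotoxin Fos, at 77.8 in culture 3, also overlapped with Jund, at 79.2 to 88.8. Fosl2 (35.8 ± 10.7) and Jun (30.9 ± 0.872) overlapped in control. Fosl2 also overlapped there with Junb, at 45.7 in culture 20 against 43.3 for Junb in culture 3. With picrotoxin Fosl2 (43.9 ± 19.9), Junb (35.8 ± 4.21) and Jun (35.1 ± 4.11) overlapped. Fosb and Fosl1 lay below all other members in all 6 libraries.

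FPKM depends on the gene models, which differ between members. The printed intervals of Jun (chromosome 5, 117958960 to 117959965), Junb (chromosome 19, 37069074 to 37070109) and Jund (chromosome 16, 20342642 to 20343668) span 1005, 1035 and 1026 bases. These are multiples of 3 in length, but so are the printed intervals of Fosl1 and Fosl2 (18450 and 17718 bases). The RefSeq genes of Jun, Junb and Jund span 3094, 1785 and 1679 bases in build GRCr8. The build of the authors' intervals is not stated. 1 FPKM corresponded to 40.2 scaled counts for Fosb but to 6.42 for Fosl2, so Fosl2 was divided by the shortest length. Comparisons of a gene between arms do not depend on these lengths.

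Junb took a smaller share of the AP-1 transcripts in every picrotoxin library than in any control library. Its share of the summed per-length level of the 7 genes was 16.8%, 21.1% and 17.3% in control cultures 3, 10 and 20, and 12.004%, 12.8% and 9.51% with picrotoxin. Its mean share was 18.4% ± 2.38 in control and 11.5% ± 1.73 with picrotoxin (SD, n = 3). Fos took 31.7% ± 5.09 and 33.2% ± 3.63, and Jund 24.2% ± 4.44 and 27.4% ± 3.75. Within the Jun family Junb made up 29.6%, 37.1% and 37.5% in control cultures 3, 10 and 20 and 21.8%, 23.6% and 23.1% with picrotoxin. The share of the Fos family lay at 43.3%, 43.0% and 54.0% in control and at 44.8%, 45.5% and 58.9% with picrotoxin, highest in culture 20 in both arms. These are shares of RNA and not of protein.

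**Figure D4:**
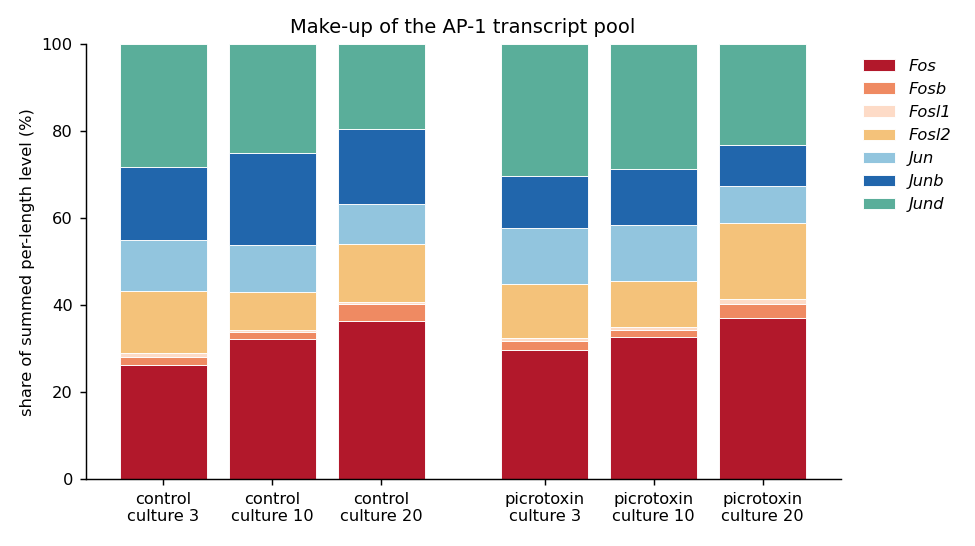
Share of each member in the summed per-length level of the 7 AP-1 genes, in percent, for each control and picrotoxin library. The Junb segment spans 16.8% to 21.1% in control and 9.51% to 12.8% with picrotoxin, and Fos is the largest segment in 4 of the 6 libraries.

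Ratios of counts within a library need neither size factors nor lengths. The ratio of Junb to Jund was 0.600, 0.855 and 0.897 in control cultures 3, 10 and 20 and 0.400, 0.452 and 0.414 with picrotoxin. The ratio of Junb to Jun was 1.49, 2.01 and 1.92 in control and 0.973, 1.03 and 1.17 with picrotoxin. Against 4 of the other 6 members (Fos, Fosl1, Jun and Jund) the ratio of Junb was lower in every picrotoxin library than in any control library. The same held against 55.6% of all other tested genes, so the lower ratio does not set these members apart.

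The genes with the most similar course were found by Pearson r of log2(value + 1) over the 6 libraries, a description of points that share cultures and arms. For Fos they were Srrd (0.998), Nrsn2 (0.991) and Ubl7 (0.991). For Fosb they were Asic1 (0.998), Kcnip1 (0.998) and SEC23B (0.997), and for Fosl2 Irgq, Mcam and Ctif (0.993 to 0.989). Junb ran closest to Ppp1r9b, Pak1 and CERS1 (0.990 to 0.989) and Jund to B3galt4 (0.996) and Kcnk12 (0.989). Jun ran closest to Alg12, Isoc2a and Prdx2 (0.994 to 0.986), and Fosl1 to Cdr2l, BCL11B and Rab22a (0.995 to 0.986). Pearson r does not measure the size of a change. The log2 fold change was -0.58 for Junb but -0.12 for Ppp1r9b and -0.32 for Pak1. Control culture 20 was 2.82 times the mean of cultures 3 and 10 for Fosb. It was 1.23 times for Asic1, 1.22 for Kcnip1 and 2.13 for SEC23B.

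The authors' table of untranslated regions, with replicates pooled, lists 4 members, and its values carry no error. For Fos the 3' region was 630 bases in control and 690 with picrotoxin, and the 5' region 148 and 144. For Fosb the 3' region was 2106 and 2100 bases, and for Fosl2 4303 and 4304, with 5' regions of 585 and 585 and of 849 and 789. Fosl1 is listed at 0 for both regions in control and at 970 and 554 bases with picrotoxin.

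Genes that act with or on AP-1 were described by lists. Over all tested genes 1.67% rose and 1.62% fell without the block, and 9.65% rose and 10.4% fell with it. An unadjusted limma p under 0.05 was found for 2123 of the 12046. These shares stand beside the list counts, which are a description. Of 14 tested bZIP partners that can pair with Fos or Jun proteins, 0 passed in limma without a block (1 at an unadjusted p under 0.05), and 3 rose with the block (median log2 fold change 0.06). Their most abundant members, Atf4, the factor of the stress response, and Atf2, a partner of Jun at the CRE, were at 0.02 and -0.08. Of 15 tested regulators of Fos and Jun transcription 0 rose and 1 fell, Mef2a, a factor that binds the Jun promoter. Mef2a went from 1970 ± 65.9 to 1470.3 ± 97.3 scaled counts (n = 3, ± SD), a log2 fold change of -0.42 (adjusted p = 0.0271 in limma), and with the block 1 of the list rose and 3 fell. Mef2a lost its unblocked call when any 1 library other than picrotoxin culture 20 was left out. The median of that list was -0.12.

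Kinase and turnover genes were described the same way. Over all tested genes 9.65% rose and 10.4% fell with the block, and 2123 of 12046 had an unadjusted limma p under 0.05. Of 15 tested genes of the ERK and RSK cascade 0 passed in limma (4 at an unadjusted p under 0.05, 4 rose and 2 fell with the block). Other unblocked fits called 1 (no FPKM filter, library totals or voom) or 2 (without picrotoxin culture 20 or without culture 20). Map2k1, a kinase of this cascade, stood at a log2 fold change of -0.09. Of 12 tested JNK pathway genes 0 passed (2 at an unadjusted p under 0.05, 1 rose and 1 fell with the block), with the scaffold Mapk8ip1 at 0.06 and the kinase Mapk9 at 0.20. Mapk9 did not pass without the block (adjusted p = 0.174 in limma) and rose with it (adjusted p = 0.0211). Of 11 tested genes of Fos and Jun protein turnover 0 passed (1 at an unadjusted p under 0.05, 1 fell with the block), with Ddb1 and Csnk2a1 at 0.03 and -0.12. The medians of these lists were -0.06, 0.04 and -0.07.

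Genes reported elsewhere as AP-1 targets followed. Of 24 tested, 6 rose and 0 fell in limma without a block, beside 1.67% and 1.62% of all tested genes. With the block 11 rose and 1 fell, beside 9.65% and 10.4% of all tested genes. The median log2 fold change of the list was 0.36. Of the 24, 4 reached an FPKM of 1 only with picrotoxin and so had to be higher there. Mmp3, Mmp9 and Th, 3 of the 6 called genes, are among them, so the counts and the median are a description and support nothing about the list. With an FPKM of 5 or more 3 rose. The count was 0 without control culture 10, 3 without picrotoxin culture 3 (2 rose, 1 fell) and 3 without picrotoxin culture 10. The list was drawn up with earlier results known and holds genes that other factors also drive. Scg2, which encodes secretogranin II, rose from 11691 ± 1096 to 21298 ± 3560 scaled counts (SD, n = 3), 1.81-fold (adjusted p = 0.00806 in limma). Folds here are on the log2(value + 1) scale, which understates those of low genes such as Th and Mmp3. Th, the tyrosine hydroxylase of catecholamine synthesis, rose from 19.3 ± 4.55 to 67.6 ± 15.2, 3.38-fold (adjusted p = 0.00886 in limma). Mmp3, a matrix protease and classical AP-1 target, rose from 7.12 ± 1.16 to 27.4 ± 5.80, 3.47-fold (adjusted p = 0.0141 in limma). Its control cultures 3, 10 and 20 held only 5.84, 8.09 and 7.42 scaled counts. Since Th, Mmp3 and Mmp9 entered the test only through their picrotoxin FPKM, their folds and p-values are a description too. The calls of Scg2, Th and Mmp3 were all lost without control culture 10, and that of Mmp3 also without picrotoxin culture 3 or 10. The other called genes, named after their values were seen, were Mmp9 (1.40), Plat (0.97) and Nptx2 (0.58 on the log2 scale).

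Promoter windows were found for 4 of these 6 genes, and 3 sites in them are shown to set the AP-1 site beside the CRE. Each line gives up to 10 bases on both sides of the match, which is in capitals, on the gene's strand of GRCr8. The Mmp3 site lies at chr8:12925200-12925226 (plus strand), 71 bases before the start, the Th site at chr1:207508270-207508297 (minus strand), 69 bases before it, and the Scg2 site at chr9:88256972-88256999 (minus strand), 123 bases before it. The match in Mmp3 is an AP-1 site, and those in Th and Scg2 are full CREs, as in Jund.
Mmp3: gaagcaattaTGAGTCAgtttgcgggt
Th: agaggggcttTGACGTCAgcctggcctt
Scg2: gctgagccggTGACGTCAgcgaggaatg

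Other rapid activity-regulated genes did not share one direction. Of 25 tested, Fos, Fosb and Junb among them, 1 rose and 4 fell in limma without a block, and 5 rose and 9 fell with it (median -0.15). Over all tested genes the shares were 1.67% and 1.62% without the block and 9.65% and 10.4% with it. Without the block the 5 calls became 1 without control culture 10 and 2 without picrotoxin culture 3 or 10. Dusp1, a phosphatase of MAP kinases, rose from 812 ± 65.0 to 1451 ± 137 scaled counts (SD, n = 3; adjusted p = 0.00610 in limma). Arc, a regulator of AMPA receptor uptake, fell from 1933 ± 134 to 942 ± 262 (adjusted p = 0.0164), and Egr3, a zinc finger factor, from 498 ± 146 to 230.1 ± 22.7 (adjusted p = 0.0167 in limma). Both calls were lost without control culture 10 or picrotoxin culture 3, and that of Egr3 also without picrotoxin culture 10. The other 2 that fell, named after their values were seen, were Egr2 (-1.47) and Ptgs2 (-0.64). Of 11 tested heat shock and oxidative stress genes, Hspa5, a chaperone of the endoplasmic reticulum, rose (log2 fold change 0.33, adjusted p = 0.0391 in limma) and 0 fell, and with the block 1 rose and 1 fell (median -0.04). Hspa5 lost its unblocked call when any 1 library other than picrotoxin culture 20 was left out.

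**Figure D5:**
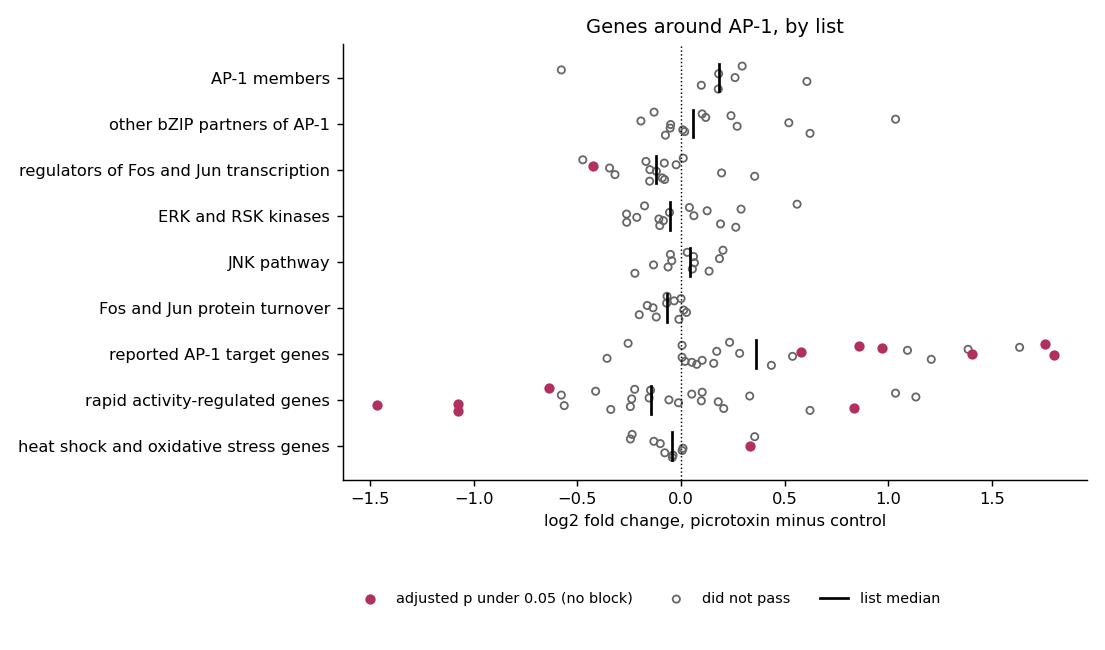
Log2 fold change (picrotoxin minus control) of every tested gene in the AP-1 list and 8 lists around it, with filled points for an adjusted p under 0.05 without a block and black bars for list medians. The reported AP-1 targets reach furthest to the right with 6 filled points. Of these, 3 reached an FPKM of 1 only with picrotoxin and so had to lie to the right. Their position is a description and supports nothing about the list. None of the 7 members is filled.

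Markers of other cells were read in the same libraries, since glia and fibroblasts also express Fos and Jun genes. Over all tested genes 1.67% rose and 1.62% fell without the block, and 9.65% rose and 10.4% fell with it. The culture label fits the markers: the 7 measured excitatory neuron markers summed to between 25384 and 27180 scaled counts in control and between 16906 and 21118 with picrotoxin, with 1 risen, 1 fallen and 5 not passed (2 risen and 3 fallen with the block). The 10 astrocyte markers summed to between 6562 and 8801 in control and between 6024 and 8358 with picrotoxin, with 0 of 7 tested passing and 4 fallen with the block. The 8 oligodendrocyte lineage markers summed to between 402 and 502 in control and between 334 and 463 with picrotoxin. Of these 8, 3 were tested, 0 passed without the block and 1 fell with it. Microglial markers summed to at most 29.2 in any library, with Itgam at 0 in all 6, and endothelial and mural markers to at most 78.5. Of the 6 fibroblast markers 2 were tested, 0 passed without the block and 1 rose with it. The 6 summed to between 1165 and 1995 in control and between 1384 and 2152 with picrotoxin. Most of this sum was Dcn (791 to 1177 over the libraries) and Lum (324 to 916). The collagens Col1a1, Col1a2 and Col3a1 held only 1.05 to 8.48 and Pdgfra 31.8 to 45.0, so the markers of this list disagree. Markers of dividing cells summed to between 189.7 and 203 in control and between 204 and 303 with picrotoxin. The part of the marker shifts in the AP-1 levels was not tested.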

How the data were processed

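Values for 6 polyA libraries were analysed. Per the submitters' processing notes, the tools were bedtools 2.22.1, Cuffnorm and Cuffdiff, Cufflinks 2.2.1 and STAR 2.3.1z12, listed without roles. The sources used here give no genome build. Values per gene and library were deposited as a signal: the number of fragments over the size factor of the library. In the authors' Cuffdiff table, per the file headers, FPKM per arm stands beside a log2 fold change, a score (the test statistic) and its p-value, with the q-value last.

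limma 3.58.1 (trend and robust, R 4.3.3) was fitted to log2(value + 1) for all genes whose FPKM reached 1 in at least 1 arm. The test was two-sided, with Benjamini-Hochberg adjustment over all tested genes and a threshold of 0.05. The script was tested on simulated data.

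Libraries of the same number deviated from their arm means together (correlation 0.41, 0.39 and 0.55 for numbers 3, 10 and 20), so the numbers were taken as pairs. This pairing comes from the values, since the labels do not say what a number marks. The fit without a culture block is the main one, and the blocked value stands beside it where it changes a call. Alternatives were other pseudocounts, filters, scalings and thresholds, limma without trend and robust, voom, and the omission of libraries. The rule named all 7 members, in each pathway list up to 3 called genes of lowest adjusted p (the 2 most abundant where none was called), and for each member the 3 genes most alike over the 6 libraries. Members and lists were chosen with earlier results of these data known. Some genes that the rule names are not reported here. Small RNA libraries were not used here.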

Additional observations from a re-analysis of the deposited data

How the results depend on the processing

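The culture block made the largest difference. Without it 396 genes and 0 AP-1 members passed; with it 2413 genes and 3 members did (Fos, Junb and Jund). Among blocked fits the count of genes was 2392 in voom, 2409, 2405 and 2383 with median-ratio, library-total and quantile scaling, 2388 and 2402 with pseudocounts of 0.1 and 5, and 2883 and 2087 with no FPKM filter and an FPKM of 5. Each of these called 3 members, though with no filter Fosl1 (log2 fold change 0.61, adjusted p = 0.0376 in limma) took the place of Fos (0.0561). With the block and culture 3, 10 or 20 left out, 1273, 1456 and 2573 genes and 4, 1 and 3 members passed. Junb kept its call in each, Fos in none. The block left the log2 fold changes of called members at 0.18 for Fos, -0.58 for Junb and 0.29 for Jund. They were 0.21, -0.55 and 0.32 with voom and library totals, 0.21, -0.57 and 0.31 with quantile scaling, and -0.57 for Junb with a pseudocount of 5. With culture 3 left out Junb, Jund, Fosl1 and Fosl2 passed at -0.64, 0.38, 1.02 and 0.48, with culture 10 left out Junb at -0.58, and with culture 20 left out Junb, Jund and Jun at -0.52, 0.23 and 0.26.

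Without the block, an adjusted p under 0.01 left 71 genes and limma without trend and robust 159. Leaving out libraries gave between 0 genes (without culture 3 or 10) and 1082 (without culture 20), and between 0 and 1 member, Junb without control culture 3 (-0.73, adjusted p = 0.0427 in limma) or picrotoxin culture 20 (0.0402). Over these omissions the log2 fold change ran from -0.045 to 0.40 for Fos, from -0.34 to 0.59 for Fosb and from -0.087 to 0.48 for Fosl2. These 3 changed sign, and only in fits that left out 1 library of a culture. Without the whole of culture 3, 10 or 20, Fos was at 0.17, 0.19 and 0.18, and Fosb and Fosl2 stayed positive. The cause was not tested. Over all 30 fits Junb ranged from -0.73 to -0.49 and Jund from 0.23 to 0.38. No member changed sign under a scaling alternative.

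Calls in the lists moved with the block as well. Over the 12 blocked fits they numbered 2 to 3 for bZIP partners, 2 to 5 for regulators and 1 to 6 for ERK and RSK genes. The JNK pathway had 0 to 3 and turnover 0 to 1. Targets had 8 to 15 (12 with the block alone, 14 in voom, 13 with library totals, 11 with a culture left out). Rapid genes had 10 to 14 (12 with an FPKM of 5, 11 and 13 with culture 3 and 20 left out) and stress genes 1 to 2. Over omissions without the block the ranges were 0 to 1, 0 to 3, 0 to 2, 0, 0, 0 to 8, 0 to 7 and 0 to 1. An adjusted p under 0.01 left 0 regulators, 2 targets, 1 rapid gene and 0 stress genes, and limma without trend and robust 0, 3, 1 and 0. With no FPKM filter 1 bZIP partner, 2 regulators and 1 ERK or RSK gene passed.

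Atf4 and Ddb1 changed sign when libraries were left out, ranging from -0.051 to 0.093 and from -0.076 to 0.10, and stood at -0.042 and -0.0058 with the block and culture 20 left out; the cause was not tested. The count-based tests planned as alternatives were not run, because a few values near 0 in each library were not whole multiples of 1 fragment and the values were kept as a scaled signal. Depth limits Fosl1, at 24 to 70 fragments a library. Alternatives with voom, and with the block joined to another choice, were chosen after seeing the data.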
